A study of Mus musculus with 6 samples.

Results

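Genes of the extracellular matrix were measured by RNA-seq in CT26, a colorectal cancer line from BALB/c mice, as a parental line and the clones B04 and B64, with 2 libraries each (replicates A and B). The parental line was a bulk population of barcoded CT26 cells that had grown as tumors in mice and were then selected with puromycin in culture. B04 and B64 were each 1 clone, grown from a single cell of such tumors, and both were resistant to immune checkpoint blockade (ICB). All 3 lines carried a retroviral barcode with a puromycin resistance gene, and the methods give no treatment of the cultures used for RNA. The study's discussion places the isolation of the clones after ICB treatment, so clonal origin and any effect of earlier treatment cannot be told apart in a comparison with the bulk parental line. The sample titles speak of tumors and the study's methods of RNA from lines in RPMI-1640 medium, so markers of stromal, blood and epithelial cells were also measured. The genes described are 51 of the 53801 genes in the tables: 5 fibrillar collagens, 5 other collagens, 11 genes of the basement membrane, 13 matrix glycoproteins, elastic fiber proteins and proteoglycans, 9 collagen-modifying and crosslinking genes and 8 proteolysis genes. They were chosen by name for their function, with earlier results of these data known, and all 51 symbols matched.

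Collagens are trimers that are hydroxylated and folded in the endoplasmic reticulum, secreted, trimmed and crosslinked outside the cell. Fibrillar collagens such as types I, III and V form fibers of the interstitial matrix, mostly made by fibroblasts. Type IV collagen, laminins, nidogen and perlecan build the basement membrane, the sheet on which epithelial and endothelial cells rest. Matrix metalloproteinases (MMPs) cut these proteins, and TIMPs inhibit MMPs. CT26 is an undifferentiated carcinoma line, and such tumor cells can transcribe matrix genes themselves.

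To show what lies before the transcription start of 4 genes that differed between the lines by a log2 fold change of at least 1 in size, the 150 bases before the start are printed for Col3a1, Thbs2, Mmp13 and Mmp14, from RefSeq promoters on GRCm38.p6. The promoter table held 32 of the 51 genes, with 36 promoters, and these 4 were chosen after their values were seen. None of the 4 windows met an annotated exon. The sequences read 5′ to 3′ along the gene's strand, and capitals mark matches on either strand to the TATA box motif TATAAA, the CCAAT box, the AP-1 motif TGANTCA or the Sp1 motif GGGCGG.
Col3a1 (chr1:45311388-45311537, strand plus): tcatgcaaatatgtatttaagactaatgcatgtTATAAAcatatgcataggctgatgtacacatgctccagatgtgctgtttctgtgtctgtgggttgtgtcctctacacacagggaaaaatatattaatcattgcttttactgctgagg
Thbs2 (chr17:14694263-14694412, strand minus): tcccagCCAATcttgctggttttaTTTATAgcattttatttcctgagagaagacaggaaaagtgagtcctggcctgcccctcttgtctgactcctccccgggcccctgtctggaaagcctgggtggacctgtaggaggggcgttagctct
Mmp13 (chr9:7272364-7272513, strand plus): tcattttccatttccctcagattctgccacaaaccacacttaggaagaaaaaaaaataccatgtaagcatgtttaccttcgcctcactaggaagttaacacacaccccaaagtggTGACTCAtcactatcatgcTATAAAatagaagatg
Mmp14 (chr14:54431448-54431597, strand plus): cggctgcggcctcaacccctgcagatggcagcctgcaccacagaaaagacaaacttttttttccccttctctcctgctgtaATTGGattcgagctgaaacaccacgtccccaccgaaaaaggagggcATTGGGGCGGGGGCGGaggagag
Mmp13, the gene of collagenase 3, had an AP-1 match whose first letter lay 35 bases before the start and a TATA box match at 16 bases. Col3a1 had a TATA box match at 117 bases and no other match, and Thbs2 had a CCAAT match at 144 bases and a TATA box match on the other strand at 126 bases. Mmp14 had no TATA box match and had 2 adjoining GGGCGG matches, of which the one farther from the start overlapped a CCAAT match on the other strand by its first letter. Over the 250 bases before each start, TATAAA was found in 22.2% of the 36 promoters against 12.4% of all 32851 promoters, CCAAT in 33.3% against 33.8%, TGANTCA in 8.33% against 6.75% and GGGCGG in 66.7% against 32.7%. These matches describe letters only.

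The libraries held 19409204 to 23472012 expected counts. Replicates of a line differed by a chi-square of 5.33 to 7.17 per degree of freedom and libraries of different lines by 26.44 to 41.35, so no library was a copy of another. The p-values below measure only the spread between these libraries, which may be technical. Libraries also differed in fragment length: the median was 271.8 to 277.3 bases in both parental libraries and B04 replicate A, and 220.8 to 246.2 bases in B04 replicate B and both B64 libraries. Short fragments and line B64 cannot be told apart in the comparison of B64 with the parental line, except through B04, so values with fragment-length class as a term of the model are given beside the results. Endothelial markers summed to at most 0.1 TPM (a transcript level scaled by gene length and library total) in each library, and Ptprc, Cd3e and Tyrobp, which define leukocytes, were at or below 0.01 TPM. Of 10 fibroblast and pericyte markers, 7 stayed under 0.5 TPM in every library, Tcf21 was at 0, and the summed level was 11.32 to 14.41 TPM, led by Pdgfrb and Pdgfra. Leukocyte markers summed to 10.46 to 12.16 TPM outside B64 but 40.29 and 36.67 TPM within it, nearly all of it Cd68. Epithelial markers summed to 22.38 to 25.42 TPM outside B64 but 46.13 and 48.23 TPM within it, led by Krt18 and Krt20. Of these 9 markers, 5 stayed under 0.5 TPM in every library. Cdx2 went the other way, with 0.87 and 0.56 TPM in the parental pair and 0 in each clone library. The part of these markers in the differences of B64 was not tested. In bulk RNA, fewer cells of a kind and less RNA per cell cannot be told apart.

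The cells transcribed a selective set of matrix genes. Of the 51 genes, 22 had a mean of at least 10 TPM over the 6 libraries, 7 had 1 to 10 TPM and 22 had less than 1 TPM. Serpinh1, the collagen chaperone HSP47, had the highest mean at 381 TPM, ahead of Col1a2 (335 TPM), Fn1 (243 TPM), Timp1 (214 TPM), Sparc (189 TPM) and Timp2 (99.4 TPM). The 6 highest genes made up 70.4% to 72.7% of the summed TPM of all 51 genes, which ranged from 1890.5 to 2195.3 across libraries. The levels of Serpinh1 in B04 (364 ± 5.3 TPM, SD, n = 2) and of Col1a2 in B64 (346 ± 18 TPM, SD, n = 2) were close to one another, as were those of Fn1 in the parental line (202 ± 38 TPM, SD, n = 2) and Timp1 there (224 ± 6.1 TPM, SD, n = 2). By share of the summed TPM, proteolysis genes took 18.6% and 19.4% in the parental pair, 13.7% and 14.3% in the B04 pair, and 18.3% and 19.1% in the B64 pair. Inhibitor genes led this share: Timp1 (224 TPM in the parental line, 155 TPM in B04) and Timp2 (96.6 and 95.9 TPM). Mmp14 followed with 49.7 and 24.8 TPM. Col1a2 led the fibrillar collagens, which took 18.9% and 19.1% (parental), 18.3% and 18.3% (B04) and 17.0% and 16.1% (B64).

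**Figure D1:**
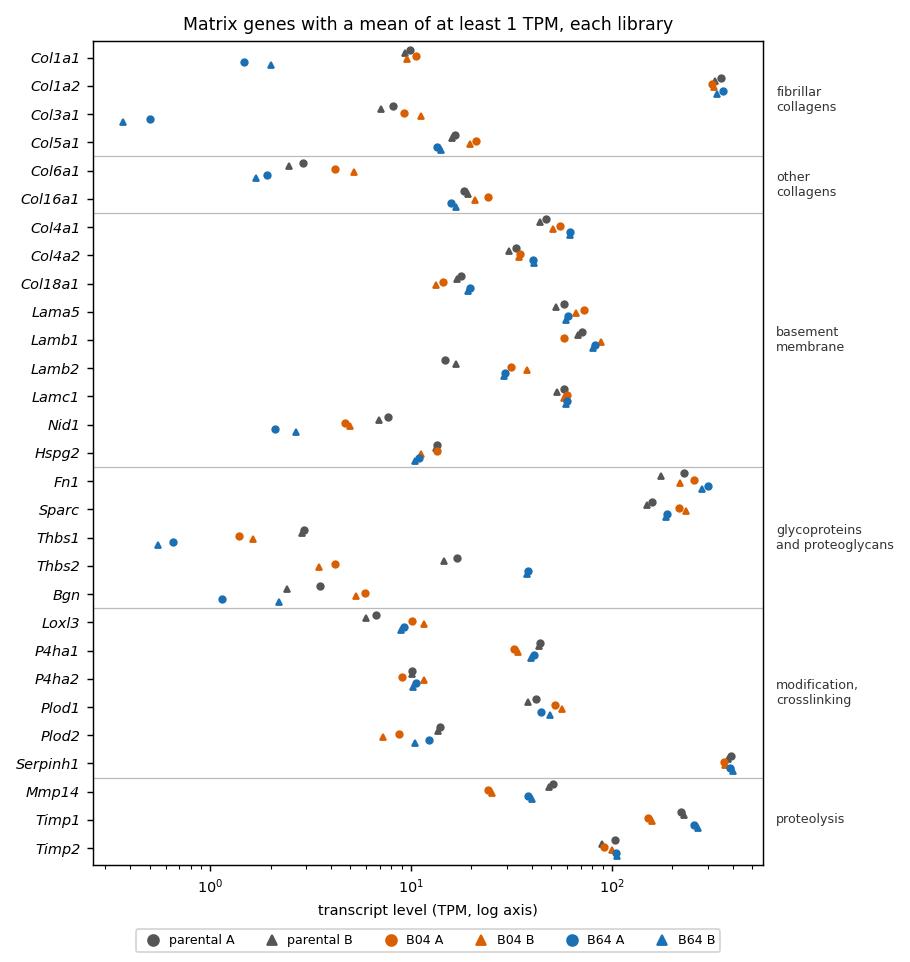
Transcript level in TPM (log axis) of the 29 matrix genes with a mean of at least 1 TPM, with 1 point per library, colored by line and grouped by function. Most genes sit within a narrow band across the 6 libraries, while Col1a1, Col3a1, Thbs1, Thbs2 and Nid1 spread widely.

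Of the 22 genes under 1 TPM, 8 had at most 3 counts in every library: Col12a1, Lama4, Nid2, Fbn2, Lum, Lox, Loxl1 and Mmp3. They include Lox and Loxl1, lysyl oxidases that crosslink collagen and elastin, and Lum, a small proteoglycan that was at 0 in all 6 libraries. A count of 3 is the floor used here, and it covers counting error only. These genes were not detectable at this depth and no fold is given for them. A further 4 genes, Eln, Loxl2, Mmp2 and Mmp9, were too low to be tested.

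A larger share of these genes than of all genes passed the test between lines. In B04 against parental, 21 of the 39 genes tested passed the threshold (DESeq2, Benjamini-Hochberg adjusted p under 0.05), 7 higher and 14 lower, where 24.1% of all 13218 genes tested passed, 11.2% higher and 12.9% lower. In B64 against parental, 20 of 39 passed, 8 higher and 12 lower, against 16.3% of all genes, 8.87% higher and 7.45% lower. Both comparisons used the same parental libraries. In B64 against B04, 25 of 38 passed, 12 higher and 13 lower, against 24.3% of 12855 genes, 13.1% higher and 11.1% lower. Among all genes averaging at least 100 normalized counts, the shares that passed were 29.4%, 19.7% and 29.2%, and among the 28 matrix genes of that level 19, 18 and 22 passed. The median log2 fold change of the genes tested was -0.15, -0.04 and 0.07 in the same order, beside 0.00192, -0.00245 and 0 over all genes tested. With fragment-length class in the model, 16 of the 21, 7 of the 20 and 18 of the 25 calls were kept. Within one class, B04 replicate A against the parental line gave 17 called genes, and B64 against B04 replicate B gave 19.

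**Figure D2:**
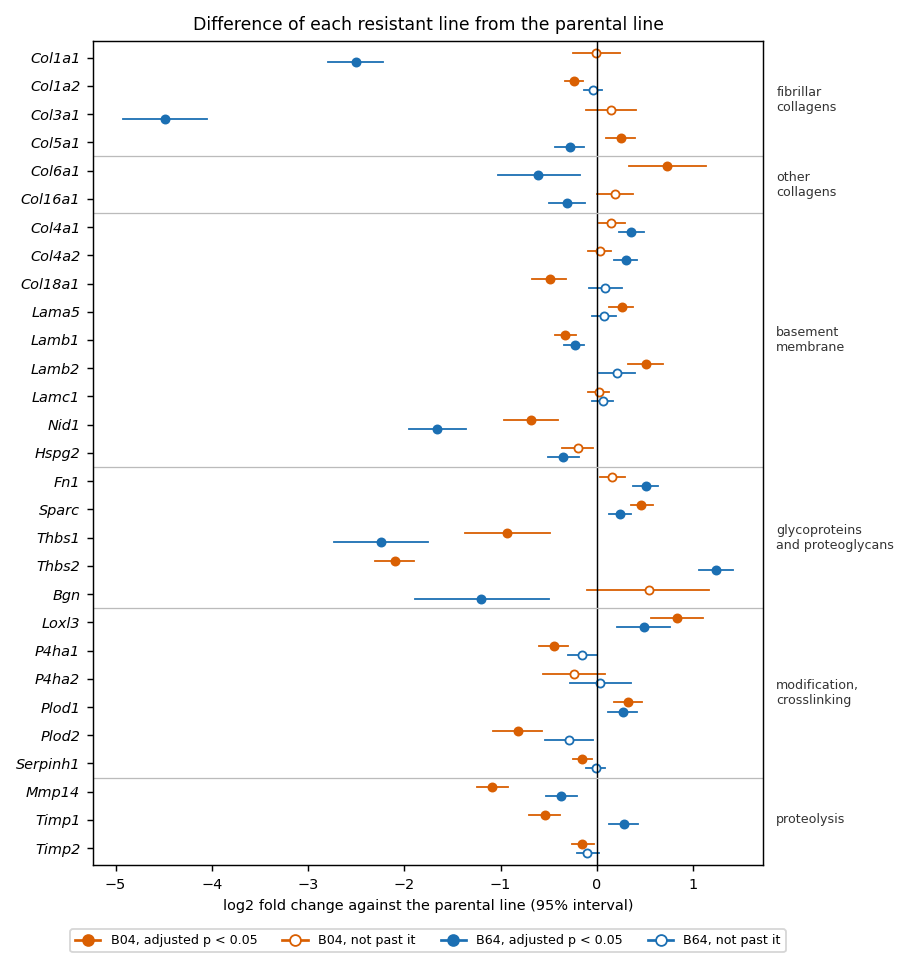
Log2 fold change of B04 (orange) and B64 (blue) against the parental line with 95% intervals, for the 29 matrix genes with a mean of at least 1 TPM. Filled points passed an adjusted p of 0.05 in DESeq2, and the longest shifts are those of Col3a1 (-4.49), Col1a1 (-2.50) and Thbs1 (-2.24) in B64 and of Thbs2 (-2.10) in B04.

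The fibrillar collagens split within line B64, which had far less Col3a1 and Col1a1 RNA than the other lines at an almost equal level of Col1a2. Of the 5 genes, 1 rose and 1 fell in B04, 3 fell in B64, and 4 differed between the clones. Col3a1 (chr1:45311538-45349706 on GRCm38, plus strand) encodes the chain of type III collagen. Its normalized counts were 829.9 and 762.2 in the parental pair, 928.5 and 835.7 in the B04 pair, and 43.0 and 28.4 in the B64 pair. The B64 libraries lay far below the other 4. Col3a1 was thus 22.3-fold lower in B64 than in the parental line (log2 fold change -4.49, SE 0.22, adjusted p = 4.67e-88 in DESeq2) and 24.7-fold lower than in B04 (-4.64, SE 0.22, adjusted p = 8.81e-95 in DESeq2). In B04 against parental it was 0.15 (SE 0.13, adjusted p = 0.502 in DESeq2).

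Col1a1 and Col1a2 encode the α1 and α2 chains that join in type I collagen. Col1a1 (chr11:94936224-94953042, plus strand) had normalized counts of 1084.6 and 1062.4 in the parental pair, 1130.9 and 1003.6 in the B04 pair, and 159.7 and 218.7 in the B64 pair. It was 5.67-fold lower in B64 than in the parental line (-2.50, SE 0.14, adjusted p = 1.18e-63 in DESeq2), and the B04 libraries lay on either side of the parental pair (-0.01, SE 0.13, adjusted p = 0.98 in DESeq2). Col1a2 (chr6:4504814-4541544, plus strand) had 28422.9 and 28947.1, then 24779.5 and 23942.5, then 28080.9 and 27766.3. Col1a2 fell by 0.24 on the log2 scale in B04 (SE 0.05, adjusted p = 9.27e-06 in DESeq2), and its change in B64 was -0.04 with a 95% interval of -0.13 to 0.05. Neither that fall nor the difference between the clones (0.20) was called with an effective-length offset or in 3 limma fits on TPM. Col1a2 had 338 ± 14 TPM in the parental line and 320 ± 4.8 TPM in B04 (SD, n = 2). Its RSEM effective length varied by 1.09 times over the libraries. On the TPM scale, which corrects for length, Col1a2 exceeded Col1a1 by 35.2 and 35.3 times in the parental libraries and by 30.0 and 33.9 times in B04. In B64 the ratio was 242 and 167. The ratio of Col1a2 to Col3a1 went from 28.9 to 46.0 in the parental and B04 libraries to 717 and 902 in B64. The RSEM effective length of Col1a1 varied by 1.01 times over the libraries, so its TPM and count moved alike.

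**Figure D3:**
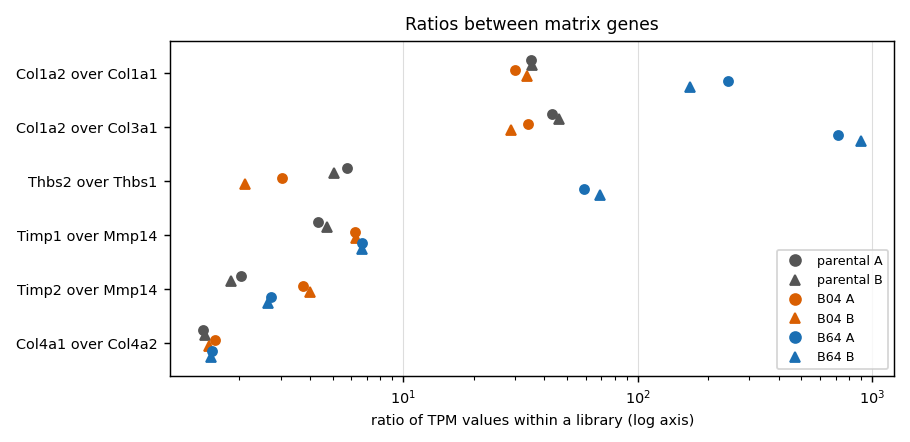
Ratios of TPM values within each library (log axis) for 6 pairs of matrix genes, with 1 point per library. The B64 points stand apart for Col1a2 over Col1a1 (167 and 242) and Thbs2 over Thbs1 (59.2 and 69.1), whereas Col4a1 over Col4a2 stays between 1.40 and 1.58 in all 6 libraries.

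Col5a1, whose type V chain co-assembles with type I collagen, went in opposite directions in the clones. Its normalized counts were 2601.4 and 2626.2 in the parental pair, 3260.6 and 2966.1 in the B04 pair, and 2089.8 and 2214.2 in the B64 pair, with no overlap between lines. It rose by 0.25 in B04 (SE 0.08, adjusted p = 0.00605 in DESeq2) and fell by 0.28 in B64 (SE 0.08, adjusted p = 0.00355 in DESeq2), and the clones differed by -0.53 (SE 0.08, adjusted p = 1.86e-10 in DESeq2). The difference between the clones kept its call without any single library. With fragment-length class, Col5a1 was called between the clones (-0.46, adjusted p = 0.000154 in DESeq2) and in B04 (0.32, adjusted p = 0.0177 in DESeq2) and not in B64 (-0.14, adjusted p = 1 in DESeq2). Without parental replicate A, parental replicate B or replicate A of the clone, the DESeq2 adjusted p of Col5a1 was 0.0942, 0.0667 and 0.256 in B04 and 0.058, 0.0651 and 0.182 in B64. Col5a2 was low, at 6.3 to 25.5 normalized counts, and passed in no comparison. The falls of Col1a1 and Col3a1 in B64 were called in each fit that left out a library, and with fragment-length class they were -2.33 and -4.33 (adjusted p = 7.57e-16 and 2.34e-36 in DESeq2). Fibroblast and pericyte markers summed to 12.93 and 13.28 TPM in B64 and to 11.32 and 11.95 TPM in the parental libraries. Of these markers Pi16 rose by 1.44 in B64 (adjusted p = 9.25e-05 in DESeq2), while Pdgfrb (-0.10) and Pdgfra (0.05) did not pass. Their part in the collagen differences was not tested.

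**Figure D4:**
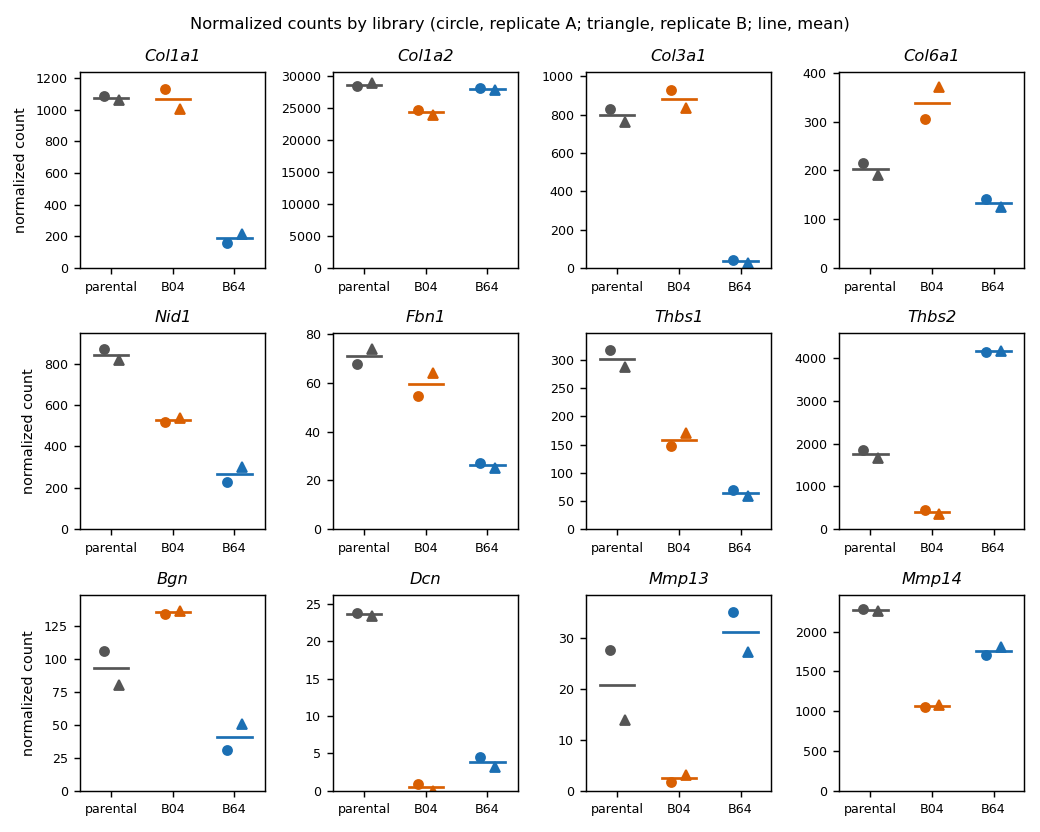
Normalized counts of 12 matrix genes in each library (circle, replicate A, and triangle, replicate B, with a line at the mean of each group), each panel with its own linear axis from 0. Col1a1, Col3a1, Nid1, Fbn1 and Thbs1 are lowest in both B64 libraries, Thbs2 and Mmp13 are lowest in both B04 libraries, and Col1a2 stays between 23942.5 and 28947.1.

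Among the other collagens, Col6a1, a chain of the beaded-filament type VI collagen, was highest in B04 and lowest in B64. Its normalized counts were 215.6 and 191.7 in the parental pair, 305.5 and 370.5 in the B04 pair, and 141.6 and 126.2 in the B64 pair. Col6a1 rose by 0.73 in B04 (SE 0.20, adjusted p = 0.00262 in DESeq2) and fell by 0.61 in B64 (SE 0.22, adjusted p = 0.0355 in DESeq2), a 2.52-fold difference between the clones (adjusted p = 8.49e-09 in DESeq2). The fall in B64 lost its call without any 1 of the 6 libraries, with a DESeq2 adjusted p of 0.0805 (without B04 replicate A) to 0.377 (without parental replicate A), and with the replicate block (the A or B letter as a term), and the rise in B04 lost it without parental replicate B (0.0994) or B04 replicate B (0.193). With fragment-length class Col6a1 was not called in B04 (0.58, adjusted p = 0.197 in DESeq2) or B64 (-0.88, adjusted p = 0.451 in DESeq2), and the difference between the clones was (-1.47, adjusted p = 1.62e-05 in DESeq2). The partner chains Col6a2 and Col6a3 were at 1.0 to 18.1 normalized counts and passed in no comparison. Col16a1, a collagen that associates with fibrils, had 1449.0 and 1503.9, then 1799.5 and 1568.5, then 1148.5 and 1234.3 normalized counts. Col16a1 fell in B64 (-0.31, SE 0.10, adjusted p = 0.0137 in DESeq2), a call lost with fragment-length class (-0.11) and without any single parental or B64 library (adjusted p = 0.0739 to 0.3 in DESeq2). The clones differed by -0.50 in Col16a1 (adjusted p = 4.74e-06 in DESeq2), and by -0.40 with fragment-length class (adjusted p = 0.0194 in DESeq2). In all, 1 of the 4 genes tested rose in B04 and 2 fell in B64.

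Of the 11 basement membrane genes, Lama4 and Nid2 were at the floor, and the changes of the other 9 against the parental line were at most 0.51 in size apart from Nid1. In each clone 2 of the 9 genes tested rose and 3 fell. Nid1 (chr13:13437551-13512269, plus strand) encodes nidogen-1, which links laminin to type IV collagen. Its normalized counts were 869.0 and 815.5 in the parental pair, 517.1 and 536.4 in the B04 pair, and 231.1 and 302.8 in the B64 pair. The 3 lines did not overlap, and B64 had 31.7% of the parental mean. Nid1 fell by 0.68 in B04 (SE 0.14, adjusted p = 2.55e-05 in DESeq2) and by 1.66 in B64 (SE 0.15, adjusted p = 6.5e-26 in DESeq2). The fall was larger in B64 than in B04 by 0.98 (SE 0.15, adjusted p = 3.55e-09 in DESeq2), and all 3 calls were kept with fragment-length class and without any single library. Nid2, the related nidogen, was at the floor.

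The type IV collagen genes Col4a1 and Col4a2 lie head to head on chromosome 8, with gene bodies that overlap by 21 bases at their starts, and both rose in B64. Col4a1 had 5714.2 and 5605.9 normalized counts in the parental pair, 6588.6 and 5996.3 in the B04 pair, and 6956.8 and 7604.4 in the B64 pair. Col4a2 had 4010.4 and 3843.9, then 4069.6 and 3946.3, then 4784.3 and 4894.1. The rises in B64 were 0.36 for Col4a1 (SE 0.07, adjusted p = 2.21e-06 in DESeq2) and 0.30 for Col4a2 (SE 0.06, adjusted p = 3.93e-05 in DESeq2). With fragment-length class they were 0.50 for Col4a1 (adjusted p = 0.00308 in DESeq2) and 0.35 for Col4a2 (adjusted p = 0.154 in DESeq2). The clones differed by 0.21 in Col4a1 (adjusted p = 0.0103 in DESeq2), a call lost without B04 replicate B (0.271) or B64 replicate B (0.318). Col18a1, the source of endostatin, went the other way in B04, with 1562.6 and 1560.9 normalized counts in the parental pair, 1115.4 and 1102.4 in the B04 pair, and 1703.5 and 1629.6 in the B64 pair. Col18a1 fell by 0.49 in B04 (SE 0.09, adjusted p = 4.02e-07 in DESeq2).

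Laminins are trimers of an α, a β and a γ chain. Lamc1, the γ1 chain, lay between 7828.1 and 8318.3 normalized counts in all 6 libraries and was called in no comparison. Lama5, the α5 chain, had 12444.3 and 11807.6 in the parental pair, 15393.6 and 13612.1 in the B04 pair, and 12773.0 and 12730.9 in the B64 pair. Lama5 rose by 0.26 in B04 (SE 0.06, adjusted p = 0.000431 in DESeq2), though not past the threshold without B04 replicate A (0.17, adjusted p = 0.1 in DESeq2). Its difference between the clones (-0.19, adjusted p = 0.0172 in DESeq2) was lost without B04 replicate A (0.489), B64 replicate A (0.153) or B64 replicate B (0.159). Lamb1, the β1 chain, had 7448.4 and 7524.1, then 6018.6 and 5917.9, then 6341.8 and 6395.4 normalized counts. On counts Lamb1 fell by 0.33 in B04 (SE 0.06, adjusted p = 7.08e-08 in DESeq2) and by 0.23 in B64 (SE 0.06, adjusted p = 0.000374 in DESeq2). The fall of Lamb1 was called in B04 and not in B64 with fragment-length class. On the TPM scale the B04 pair split: Lamb1 had 70.73 and 67.89 TPM in the parental pair and 57.92 and 88.32 TPM in the B04 pair. The B64 pair had 82.62 and 80.53 TPM. By limma on log2(TPM + 1) the differences were 0.04 in B04 and 0.23 in B64. The effective length that RSEM assigned to Lamb1 was 5434.8 to 5479.1 bases where fragments were long and 3629.0 to 4119.1 bases where they were short. The direction of Lamb1 thus depends on the unit in the short-fragment libraries, while B04 replicate A was below the parental pair in both units. Lamb2, the β2 chain, rose by 0.51 in B04 (SE 0.10, adjusted p = 2.07e-06 in DESeq2), and its mean level was 15.8 ± 1.4 TPM in parental cells, 34.5 ± 4.5 TPM in B04 and 29.3 ± 0.32 TPM in B64 (SD, n = 2). In counts its change in B64 was 0.21 (SE 0.10, adjusted p = 0.125 in DESeq2), and its effective length ranged from 2306.0 to 4321.3 bases. Hspg2, the gene of perlecan, fell by 0.35 in B64 (SE 0.08, adjusted p = 0.000354 in DESeq2), and by 0.10 with fragment-length class (adjusted p = 1 in DESeq2).

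Of the thrombospondin genes, Thbs2 fell in B04 and rose in B64, while Thbs1 fell in both clones. Thbs1 and Thbs2 encode matricellular glycoproteins that bind cells, proteases and growth factors, thrombospondin-1 being an activator of TGF-β. Thbs2 (chr17:14665500-14694235, minus strand) had normalized counts of 1855.4 and 1663.8 in the parental pair, 451.5 and 366.4 in the B04 pair, and 4138.7 and 4160.2 in the B64 pair. Both B04 libraries lay below the parental pair and both B64 libraries above it. Thbs2 fell by 2.10 on the log2 scale in B04 (SE 0.10, adjusted p = 8.26e-92 in DESeq2) and rose by 1.24 in B64 (SE 0.09, adjusted p = 4.34e-40 in DESeq2). It was 10.1-fold higher in B64 than in B04 (3.34, SE 0.10, adjusted p = 1.01e-239 in DESeq2), and with fragment-length class the difference was 3.50. Thbs1 (chr2:118111876-118127133, plus strand) had 317.7 and 287.1 in the parental pair, 146.8 and 170.0 in the B04 pair, and 69.1 and 58.9 in the B64 pair. Thbs1 fell in both clones, by 0.93 in B04 (SE 0.22, adjusted p = 0.000323 in DESeq2) and by 2.24 in B64 (SE 0.25, adjusted p = 2.38e-17 in DESeq2). The fall in B04 missed the threshold without parental replicate A (0.0688) or B04 replicate A (0.0505), and the fall in B64 was called in each such fit. The TPM ratio of Thbs2 to Thbs1 was 5.77 and 5.09 in the parental pair, 3.03 and 2.12 in the B04 pair, and 59.2 and 69.1 in the B64 pair. The gene model of Thbs1 shares 3.4% of its exon bases with a gene on the opposite strand, and the strand setting of the counting is not given in the sources used here.

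Fibronectin and SPARC, among the most abundant products here, rose modestly. Fn1, whose product fibronectin binds integrins and collagen, had 29452.2 and 26804.4 normalized counts in the parental pair, 33643.7 and 29218.1 in the B04 pair, and 40955.8 and 39129.3 in the B64 pair. Fn1 rose by 0.51 in B64 (SE 0.07, adjusted p = 3.86e-12 in DESeq2), and by 0.71 with fragment-length class (adjusted p = 3.96e-09 in DESeq2). Neither this rise nor the difference between the clones was called in the 3 limma fits on TPM. The parental libraries had 228.85 and 175.32 TPM of Fn1. In B04 the change of Fn1 was 0.16 (SE 0.07, adjusted p = 0.069 in DESeq2), which the replicate block brought past the threshold. Sparc, whose product binds collagen and shapes its fibers, had 5702.7 and 5737.8, then 7626.6 and 8137.9, then 6790.3 and 6727.6. Sparc rose by 0.46 in B04 (SE 0.06, adjusted p = 1.21e-13 in DESeq2) and by 0.24 in B64 (SE 0.06, adjusted p = 0.000596 in DESeq2). The rise of Sparc in B64 was 0.15 with fragment-length class (adjusted p = 0.953 in DESeq2) and missed the threshold without B64 replicate A (0.0519).

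Of the small proteoglycans and fibrillins, Dcn had few counts in both clones and was nearly absent from B04, and Bgn and Fbn1 were lowest in B64. Dcn (chr10:97479609-97518143, plus strand) encodes decorin, which coats collagen fibrils. It had 23.8 and 23.4 normalized counts in the parental pair, 0.9 and 0 in the B04 pair, and 4.5 and 3.2 in the B64 pair. With B04 at the floor of 3 counts per library, Dcn was at least 8.15-fold lower there than in the parental line (adjusted p = 0.00502 in DESeq2). That call was lost with fragment-length class (0.094) and without B04 replicate B (0.0636), and without a parental library DESeq2 gave no adjusted p. In B64 the change of Dcn was -2.62 (SE 1.03, adjusted p = 0.0618 in DESeq2), called with edgeR and not with fragment-length class. The difference of Dcn between the clones did not pass (3.0, adjusted p = 0.227 in DESeq2). Bgn, the related biglycan, had 105.9 and 80.4, then 134.1 and 136.4, then 30.6 and 50.5. Bgn fell by 1.20 in B64 (SE 0.35, adjusted p = 0.00701 in DESeq2), a call lost without parental replicate A (0.253) or B64 replicate A (0.277) and with fragment-length class (0.696), and it was 3.34-fold lower in B64 than in B04 (adjusted p = 9.2e-06 in DESeq2). Fbn1, the gene of the microfibril protein fibrillin-1, had 67.7 and 73.9, then 54.7 and 64.1, then 27.2 and 25.2. Fbn1 fell by 1.44 in B64 (SE 0.42, adjusted p = 0.00701 in DESeq2), which missed the threshold without any single parental or B64 library (0.102 to 0.139), and its difference between the clones (-1.18, adjusted p = 0.0273 in DESeq2) missed it without any 1 of the 6 libraries (0.0725 to 0.242). Neither difference of Fbn1 was called with fragment-length class. Of the exon bases of Fbn1, 20.1% overlap Gm9913 on the opposite strand. Vcan, Tnc, Postn and Eln ranged from 0 to 17.2 normalized counts and passed in no comparison. Of the 10 genes of this group that were tested, 1 rose and 3 fell in B04, and 3 rose and 3 fell in B64.

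The collagen-modifying genes moved most in B04, where 2 of 6 rose and 3 fell, while in B64 2 rose and none of the 6 fell. The 2 rises in B64 (Loxl3 and Plod1) and the fall of Serpinh1 in B04 were not called with fragment-length class. Loxl3, a lysyl oxidase and the one member of that family above 1 TPM in this list, had 349.1 and 395.6 normalized counts in the parental pair, 659.4 and 664.7 in the B04 pair, and 509.7 and 535.1 in the B64 pair. Loxl4, a lysyl oxidase outside this list, had a mean of 61.4 TPM against 8.76 TPM for Loxl3. Loxl3 rose by 0.83 in B04 (SE 0.14, adjusted p = 4.28e-08 in DESeq2) and by 0.49 in B64 (SE 0.14, adjusted p = 0.00507 in DESeq2). Its rise in B64 missed the threshold without parental replicate A (0.214), B64 replicate A (0.0752) or B64 replicate B (0.158), and its difference between the clones (-0.34, adjusted p = 0.0497 in DESeq2) without any 1 of the 6 libraries (0.0819 to 0.35). Plod1 and Plod2 encode lysyl hydroxylases, and went opposite ways in B04. Plod1 had 2001.4 and 1997.7, then 2499.9 and 2505.0, then 2326.5 and 2488.6. Plod1 rose by 0.32 in B04 (SE 0.08, adjusted p = 0.000196 in DESeq2) and by 0.27 in B64 (SE 0.08, adjusted p = 0.00442 in DESeq2), the latter lost without either parental library (0.0863 and 0.0739) or B64 replicate B (0.231). Plod2, which hydroxylates the telopeptides that enter crosslinks, had 886.2 and 910.9, then 551.8 and 462.1, then 779.3 and 689.7. Plod2 fell by 0.82 in B04 (SE 0.13, adjusted p = 5.02e-09 in DESeq2). It was higher in B64 than in B04 by 0.53 (adjusted p = 0.000421 in DESeq2), a call lost without B04 replicate B (0.0684) or B64 replicate A (0.0761).

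The prolyl 4-hydroxylase gene P4ha1, needed for a stable collagen helix, fell by 0.45 in B04 (SE 0.08, adjusted p = 1.77e-07 in DESeq2), with 2322.9 and 2390.5 normalized counts in the parental pair, 1701.9 and 1759.9 in the B04 pair, and 2155.4 and 2094.3 in the B64 pair. Its difference between the clones was 0.30 (adjusted p = 0.00117 in DESeq2), lost without B04 replicate A (0.0663) or B64 replicate A (0.0717). P4ha2 passed in no comparison. Serpinh1 had 13843.7 and 14046.6, then 12398.4 and 12734.7, then 13564.7 and 14130.2. Its fall of 0.15 in B04 (SE 0.05, adjusted p = 0.0177 in DESeq2) was lost without any single parental or B04 library (0.0714 to 0.204), and its difference between the clones (0.14, adjusted p = 0.0296 in DESeq2) without any single B04 or B64 library (0.0897 to 0.357). Loxl2 had 0 to 7.9 normalized counts.

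Of the 8 proteolysis genes 5 were tested, of which 4 (Mmp13, Mmp14, Timp1 and Timp2) fell in B04 and none rose, though the falls of Mmp13 and Timp2 depended on single libraries. Mmp13, Mmp14 and Timp1 were higher in B64 than in B04, and Timp2 (0.05, adjusted p = 0.611 in DESeq2) and Timp3 (2.14, adjusted p = 0.223 in DESeq2) did not pass there. Mmp14 (chr14:54431612-54445364, plus strand) encodes the membrane-bound collagenase MT1-MMP, which also activates pro-MMP2. It had 2285.7 and 2253.0 normalized counts in the parental pair, 1053.4 and 1081.0 in the B04 pair, and 1708.0 and 1807.3 in the B64 pair. Mmp14 fell by 1.09 in B04 (SE 0.08, adjusted p = 1.03e-35 in DESeq2), to 47.0% of the parental mean, a call kept under every alternative run. It fell by 0.37 in B64 (SE 0.08, adjusted p = 0.000146 in DESeq2), a call lost without B64 replicate A (0.0539) and with fragment-length class (0.336), and was higher in B64 than in B04 by 0.72 (adjusted p = 1.84e-15 in DESeq2). Mmp2, whose product that activation yields, was at 0 to 4.5 normalized counts, and Mmp9, a gelatinase, at 0.9 to 4.8.

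Mmp13 (chr9:7272514-7283331, plus strand) was scarce, with 27.7 and 14.0 normalized counts in the parental pair, 1.8 and 3.1 in the B04 pair, and 35.1 and 27.3 in the B64 pair. Against the floor, Mmp13 was at least 7.2-fold lower in B04 than in the parental line (adjusted p = 0.00503 in DESeq2) and at least 10.8-fold higher in B64 than in B04 (adjusted p = 0.000519 in DESeq2). The fall in B04 was lost without parental replicate A (0.152) or either B04 library (0.103 and 0.0553) and with fragment-length class (0.078), whereas the difference between the clones was called in each fit that left out a library and had an adjusted p of 0.0549 with fragment-length class.

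The inhibitor genes were abundant. Timp1 had 2490.8 and 2700.1 normalized counts in the parental pair, 1702.8 and 1865.8 in the B04 pair, and 3108.0 and 3193.0 in the B64 pair. Timp1 fell by 0.54 in B04 (SE 0.08, adjusted p = 4.68e-10 in DESeq2) and rose by 0.28 in B64 (SE 0.08, adjusted p = 0.00415 in DESeq2), and the clones differed by 0.82 (SE 0.08, adjusted p = 8.34e-23 in DESeq2). The rise in B64 was 0.15 with fragment-length class (adjusted p = 1 in DESeq2) and was lost without parental replicate A (0.202) or either B64 library (0.0736 and 0.151). Timp2 had 5423.2 and 5392.7, then 4939.7 and 4812.5, then 4972.4 and 5146.4, and its fall of 0.15 in B04 (adjusted p = 0.0495 in DESeq2) was lost without any 1 of the 6 libraries (0.105 to 0.333). Timp3 had 1.0 to 15.9 and passed in no comparison. On the TPM scale the ratio of Timp2 to Mmp14, partners in pro-MMP2 activation, was 2.04 and 1.84 in the parental pair, 3.75 and 3.99 in the B04 pair, and 2.74 and 2.65 in the B64 pair. The ratio of Timp1 to Mmp14 was 4.32 and 4.71, then 6.23 and 6.30, then 6.68 and 6.70, above the parental libraries in all 4 clone libraries.

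Col3a1 and Col5a2 lie tail to tail on chromosome 1, 24615 bases apart, and Col6a2 and Col6a1 in tandem on chromosome 10, 85162 bases apart. Within 1 Mb of Col3a1, 3 other genes were tested in B64 against parental, of which none rose and 1 fell, with a median log2 fold change of -0.29. Within 1 Mb of Col1a1, 32 other genes were tested in B64 against parental, of which 3 rose and 4 fell, with a median log2 fold change of 0.10. Within 1 Mb of Thbs2, 13 were tested, of which 2 rose and none fell in B64, and none rose and 1 fell in B04. Of all genes tested, 8.87% rose and 7.45% fell in B64, and 11.2% rose and 12.9% fell in B04.

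Other genes of the matrix gave a wider view, from a list of 121 that shares no gene with the 51, of which 48 had at most 3 counts in every library. In B04, 14 of the 62 tested rose and 13 fell, where 11.2% of all genes tested rose and 12.9% fell. In B64, 11 of the 62 rose and 18 fell, where 8.87% of all genes tested rose and 7.45% fell. Between the clones, 28 of 60 passed, 12 higher and 16 lower in B64, against 24.3% of all genes tested. Among 17 other glycoproteins and proteoglycans tested, 7 rose and none fell in B04, and 5 rose and 5 fell in B64. The other proteolysis genes had 2 higher and 5 lower of 13 in B04 and 3 higher and 3 lower in B64. In all, 20 of the 121 were called in at least 1 comparison with a log2 fold change of at least 1 in size. Of all genes tested, 471 of 13218 (B04 against parental), 362 of 13218 (B64 against parental) and 438 of 12855 (B64 against B04) were. These counts are per comparison and the 20 pools the comparisons, so they cannot be set against each other directly. Those of the 20 with the smallest adjusted p follow.

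The urokinase receptor gene Plaur, whose product acts in plasmin-driven proteolysis, was low in B04. It had 2847.5 and 3128.4 normalized counts in the parental pair, 1158.3 and 1310.0 in the B04 pair, and 2598.3 and 2642.1 in the B64 pair. Plaur fell by 1.28 in B04 (SE 0.09, adjusted p = 4.53e-47 in DESeq2), and its change in B64 was -0.19 (SE 0.08, adjusted p = 0.113 in DESeq2).

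The fibulin genes Fbln2 and Fbln5, whose products bind elastic fibers, fell in B64, with changes of -0.04 (SE 0.07) and 0.04 (SE 0.10) in B04. Fbln2 had 3530.6 and 3703.6, then 3510.5 and 3537.1, then 1517.8 and 1522.4 normalized counts, a fall of 1.25 in B64 (SE 0.07, adjusted p = 9.68e-65 in DESeq2) and a difference of -1.21 between the clones (adjusted p = 3.72e-61 in DESeq2). Fbln5 had 1435.7 and 1446.8, then 1538.6 and 1413.8, then 654.7 and 645.5, a fall of 1.15 in B64 (SE 0.10, adjusted p = 5.48e-28 in DESeq2). Ogn, the small proteoglycan osteoglycin, rose by 1.20 in B04 (SE 0.09, adjusted p = 1.05e-41 in DESeq2) and fell by 0.62 in B64 (SE 0.09, adjusted p = 1.02e-09 in DESeq2), the latter lost with fragment-length class (0.0759). Ccn1, a matricellular integrin ligand, fell by 0.79 in B64 (SE 0.09, adjusted p = 1.3e-15 in DESeq2) and rose by 0.32 in B04 (SE 0.09, adjusted p = 0.00169 in DESeq2), a rise lost without parental replicate A (0.0719) or B04 replicate B (0.0972).

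Tgm2, a transglutaminase that crosslinks matrix proteins, rose in both clones, which differed by 0.04 (SE 0.08, adjusted p = 0.802 in DESeq2). It had 1335.5 and 1284.1 normalized counts in the parental pair, 2784.5 and 2659.7 in the B04 pair, and 2777.3 and 2811.3 in the B64 pair, with rises of 1.06 (SE 0.08, adjusted p = 2.36e-40 in DESeq2) and 1.09 (SE 0.08, adjusted p = 8.04e-43 in DESeq2). Its exons share 13.7% of their bases with Gm20412 on the opposite strand. Tnxb, the tenascin-X gene, rose by 2.18 in B04 (SE 0.14, adjusted p = 1.64e-48 in DESeq2) and by 1.0 in B64 (SE 0.15, adjusted p = 1.26e-09 in DESeq2). Emilin2, an elastic fiber glycoprotein gene, rose by 0.72 and 1.44 (adjusted p = 1.86e-08 and 1.4e-33 in DESeq2), and Ecm1 rose by 1.54 in B64 (SE 0.14, adjusted p = 9.45e-28 in DESeq2). Lama2, the laminin α2 gene, was chosen after its values were seen: it had 65.8 and 47.7 normalized counts in the parental libraries and 0 to 1 in the 4 clone libraries. Against the floor, Lama2 was at least 19.6-fold lower in B04 and at least 17.3-fold lower in B64 (adjusted p = 0.000122 and 6.95e-06 in DESeq2).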

How the data were processed

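RNA-seq libraries of 3 CT26 lines, 2 per line, were grouped by their titles. Per the study's methods, the authors aligned paired reads to mm10 with STAR and quantified genes with RSEM. The deposited tables give the expected count per gene, which need not be whole, and TPM, which the authors scaled by effective gene length and library total. FPKM was not used here. Of 53801 identifiers, 53620 (99.7%) matched a symbol in GENCODE M21 (GRCm38), which also gave positions.

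Expected counts were rounded and tested with DESeq2 1.42.0 (R 4.3.3, Wald test, all 6 libraries, line as the only term, no shrinkage), after the study's methods. Adjusted p-values were taken over all genes tested and called under 0.05. Normalized counts are expected counts divided by size factors, changes are log2 fold changes with their standard error (SE), and folds against a line with at most 3 counts per library are lower bounds. Numbers in parentheses after a library left out or a model term are DESeq2 adjusted p-values or, where stated, changes. Alternatives were edgeR 4.0.16 (quasi-likelihood), limma 3.58.1 on log2(TPM + 1) and log2(TPM + 0.1), TMM factors, filters, effective-length offsets, fragment-length class, the replicate block, thresholds and single libraries left out. A lone remaining library was assumed to vary like the other groups. The tests were checked on simulated counts. The letters A and B were not treated as pairs in the main fit. Correlations of the deviations of same-lettered libraries across 11996 genes were 0.11, 0.01 and -0.05. With so few libraries per line, these values cannot exclude a pairing.

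The genes, lists and the fragment-length alternative were chosen with earlier results of these data known. Values in every library are given for genes called with a log2 fold change of at least 1 in size and for the 2 genes of each group with the highest TPM (22 genes), and for others chosen after their values were seen. Of the other matrix genes, the 10 with the smallest adjusted p among those with such a change were chosen, of which 1 is not reported here.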

Additional observations from a re-analysis of the deposited data

Results flagged for a closer look

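Compared directly, 25 of the 38 genes tested differed between B64 and B04 (DESeq2, adjusted p under 0.05), and each is listed because the same contrast with the parental line then differs between the clones. As log2 differences of B64 minus B04, the fibrillar and other collagens gave -4.64 for Col3a1, -2.49 for Col1a1, -1.34 for Col6a1, -0.53 for Col5a1, -0.50 for Col16a1 and 0.20 for Col1a2. The basement membrane genes gave -0.98 for Nid1, -0.29 for Lamb2, -0.19 for Lama5, 0.21 for Col4a1, 0.27 for Col4a2 and 0.59 for Col18a1. Glycoproteins and proteoglycans gave -1.73 for Bgn, -1.31 for Thbs1, -1.18 for Fbn1, -0.22 for Sparc, 0.35 for Fn1 and 3.34 for Thbs2. The modifying enzymes and the chaperone gave -0.34 for Loxl3, 0.14 for Serpinh1, 0.30 for P4ha1 and 0.53 for Plod2, and the proteolysis genes 0.72 for Mmp14, 0.82 for Timp1 and 3.69 for Mmp13. Without B04 replicate A, B64 replicate A or B64 replicate B, Lamb2 had an adjusted p of 0.391, 0.141 and 0.14 (DESeq2), and Sparc had 0.0918 without B04 replicate B and 0.0591 without B64 replicate B. In all, 12 were higher and 13 lower in B64. With fragment-length class as a term, 18 of the 25 were called, and Lama5, Lamb2, Fbn1, Loxl3, P4ha1, Serpinh1 and Mmp13 were not.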

How the results depend on the processing

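The number of the 51 genes called was 21 (B04 against parental), 20 (B64 against parental) and 25 (B64 against B04). Leaving out single libraries gave 16 to 20, 11 to 19 and 18 to 23, the lowest for B64 against parental without B64 replicate A (11) and parental replicate A (12). The edgeR test kept 21, 20 and 24 of these calls. With the replicate block 21, 19 and 23 genes were called, losing Timp2, then Col6a1, then Fbn1 and Loxl3, and gaining Fn1 in B04. With fragment-length class 7 were called in B64 against parental: Col1a1, Col3a1, Col4a1, Nid1, Fn1, Thbs1 and Thbs2. Limma on log2(TPM + 1) called 10, 9 and 11, on log2(TPM + 0.1) 9, 9 and 11, and on log2(TPM + 1) of genes with at least 1 TPM in 2 libraries 11 in B64 against parental and 15 in B64 against B04. A minimum log2 fold change of 0.5 left 11, 9 and 14. Lamb1 turned from lower to higher: in B04 to 0.04, 0.05 and 0.04 in the 3 limma fits, and in B64 to 0.23, 0.24 and 0.23 in those fits and 0.19 with effective lengths as an offset, in none of them past the threshold. No other called change turned direction, and 1584 of the 1815 values by gene and alternative (named genes) kept direction and call. Timp2 in B64, not called, was -0.10 on counts and 0.13 in limma on log2(TPM + 1). Over all genes, counts of calls (3181, 2157 and 3118) moved by over 1.5 times with fragment-length class (1596, 340 and 1625) and in limma on log2(TPM + 1) (1323, 715 and 1382), where 836 of 1323 were higher in B04 against 1477 of 3181. Leaving out 1 library moved them as far: to 1865, 2019, 1870 and 1755 for B04 against parental (without parental A, parental B, B04 A and B04 B), 1117, 1284, 988 and 1080 for B64 against parental (without parental A, parental B, B64 A and B64 B) and 1753, 1961, 1696 and 1787 for B64 against B04 (without B04 A, B04 B, B64 A and B64 B). The share of higher calls in B64 went from 54.3% to 68.8% with fragment-length class. The fit with fragment-length class rests on the B04 pair to part class from line. The cause of the other moves was not tested, and genes at the floor could not be compared at this depth.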
